A study of Rattus norvegicus with 15 samples.

Results

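The genes described here are the 7 complex I subunit genes carried by the rat mitochondrial genome, Mt-nd1, Mt-nd2, Mt-nd3, Mt-nd4l, Mt-nd4, Mt-nd5 and Mt-nd6. They were chosen by their Ensembl identifiers and not by any measured value, although earlier results of these data were known. They are 7 of the 30560 gene identifiers counted. RNA was measured in 15 libraries from primary rat oligodendrocytes, the myelin-forming cells of the central nervous system, grown from forebrain cortex of newborn Sprague–Dawley rats and kept for 3 days in maturation medium. There were 5 groups of 3 libraries. Input and an immunoprecipitation of hnRNP A2 were each made from control cells and from cells given amyloid-β, and an immunoprecipitation with IgG was made from both treatments pooled. Input is total cellular RNA, and the immunoprecipitations hold the RNA recovered with an antibody to hnRNP A2 or with IgG. Amyloid-β was given as oligomers of the peptide, and the sources used here do not give its dose on the cells or its duration. The pooling is stated by the labels, whereas the IgG file names carry the amyloid-β mark, and the labels were followed. The question of the series was which RNAs are bound by hnRNP A2 and whether amyloid-β alters this.

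Complex I, the NADH dehydrogenase, is the first enzyme of the respiratory chain, and its membrane arm is built in large part from the proteins of these genes. The mitochondrial genome is copied from both strands as long precursor RNAs that are cut into single messengers, and Mt-nd6 is the only complex I subunit whose messenger comes from the light-strand promoter. The other members, here called the heavy-strand genes, come from the opposite precursor. hnRNP A2 is an RNA-binding protein of the nucleus and cytoplasm, known in oligodendrocytes for its part in carrying messengers to the cell processes.

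The identifiers of the heavy-strand genes were ENSRNOG00000030644 for Mt-nd1, ENSRNOG00000031033 for Mt-nd2, ENSRNOG00000033615 for Mt-nd3, ENSRNOG00000031053 for Mt-nd4l, ENSRNOG00000029707 for Mt-nd4 and ENSRNOG00000029971 for Mt-nd5, and that of Mt-nd6 was ENSRNOG00000029042. The files hold no gene names, positions or lengths, and 0 of the 30560 identifiers could be matched to the gene table used here. Levels were therefore not compared between genes, neither the labelled cell type nor the member names could be checked against markers, and no nuclear complex I gene was analysed. The library kit keeps strand, but the sources used here do not give the strand setting of the counting. Reads of Mt-nd6 and of RNA copied from the opposite strand at its position therefore cannot be told apart, and the same holds at each heavy-strand gene. Reads that also matched a near-identical nuclear copy of mitochondrial sequence could not be followed, since reads with several alignments lie outside the gene counts.

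Depth differed between the kinds of library. Gene counts were 14773400 to 25751522 in input and 28056346 to 33168494 in the hnRNP A2 libraries, but 81463, 4096829 and 1895870 in IgG replicates 2, 3 and 4. The members' counts were 87440 to 152980 per input library, 97837 to 154617 per hnRNP A2 library, and 68, 4386 and 1393 in IgG. IgG replicate 2 thus stands apart, and for a gene with no count there the level can be as high as 28.6 CPM (3 counts, counting error only). Of aligned reads, 55.7% ± 7.04 (SD, n = 6) had several alignments in input and 18.9% ± 5.55 (n = 6) in the hnRNP A2 libraries, against 25.5% to 75.7% in IgG. Of uniquely aligned reads, 9.94% ± 1.13 lay in no annotated feature in input, 22.6% ± 2.60 in the hnRNP A2 libraries and 20.2% ± 1.82 (n = 3) in IgG. Both shares separated the hnRNP A2 from the input libraries, and the second also separated IgG from input. The range of the first in IgG overlapped those in input and in hnRNP A2, and the ranges of the second overlapped between IgG and hnRNP A2. The part of these shares in the results was not tested.

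The 7 genes together took 0.586% ± 0.0920 of gene counts in input (SD, n = 6), 0.414% ± 0.0833 in the hnRNP A2 libraries (n = 6) and 0.0880% ± 0.0172 in IgG (n = 3). In the comparison of hnRNP A2 with input, Mt-nd1, Mt-nd2, Mt-nd3 and Mt-nd4l fell in both treatments, Mt-nd4 fell in control, Mt-nd5 passed in neither and Mt-nd6 rose in both. With edgeR at an adjusted p under 0.05, 5 of the 7 genes fell and 1 rose in control cells, where 18.4% of all tested features fell and 19.0% rose. With amyloid-β, 4 fell and 1 rose, where 20.5% of all features fell and 18.6% rose. All 7 genes passed the expression filter in each comparison. The median log2 fold change of the members was -1.50 in control and -0.92 with amyloid-β, against 0.02 and -0.01 over all features. Values below are in CPM, counts put on a common library size with TMM factors, given in the order of replicates 2, 3 and 4. Scaling removes differences in total RNA yield, so a lower level is lower relative to the bulk of features. It need not be a smaller share of gene counts. With amyloid-β, mean Mt-nd4 was 1911 CPM in input and 1414 CPM in the hnRNP A2 libraries with TMM. With library sizes alone the means were 1602 and 1634 CPM. In bulk samples fewer cells of a type and less RNA per cell cannot be told apart.

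**Figure D1:**
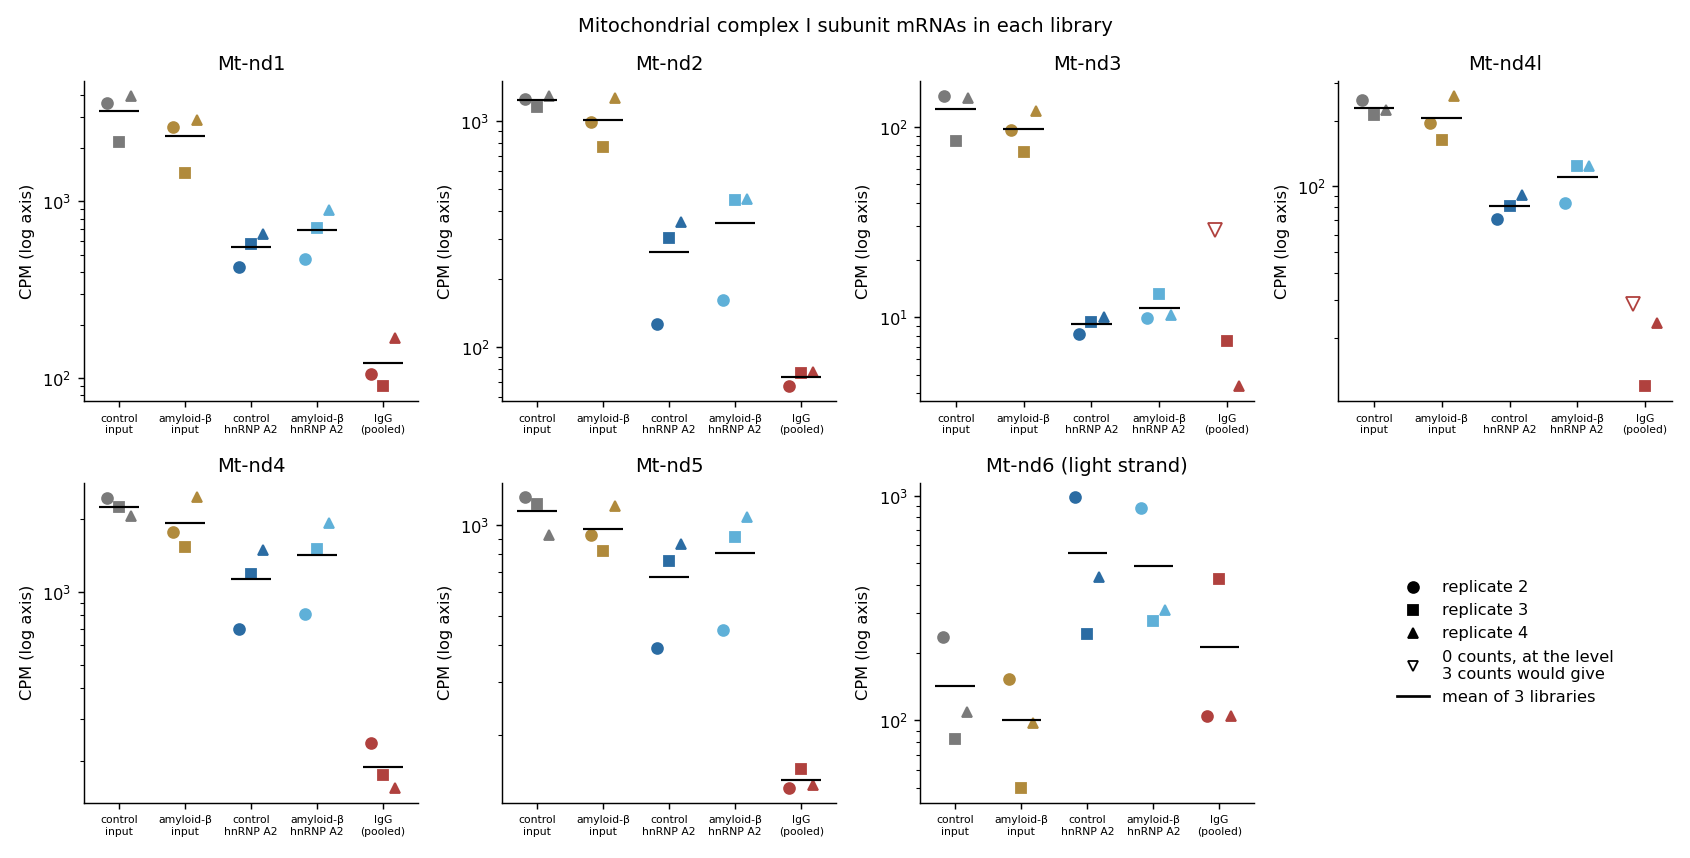
TMM-scaled CPM of each complex I subunit gene (1 panel per gene, log axes of different ranges) in the 5 groups, with 1 point per library, shaped by replicate number, and a bar at the mean of 3 libraries. The open triangles mark the 0 counts of Mt-nd3 and Mt-nd4l in IgG replicate 2, drawn at the level that 3 counts would give, and no mean is drawn there. The heavy-strand means step down from input to hnRNP A2 and, where drawn, to IgG, whereas every hnRNP A2 library is above every input library for Mt-nd6.

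Mt-nd3, a small membrane subunit, showed the largest fall of the 7. It stood at 146, 84.9 and 142 CPM in control input and at 8.20, 9.47 and 10.0 CPM in the control hnRNP A2 libraries. With amyloid-β it stood at 96.5, 73.7 and 121 CPM in input and 9.93, 13.3 and 10.3 CPM in the hnRNP A2 libraries. The kinds of library did not overlap in either treatment. By edgeR the log2 fold change was -3.75 ± 0.28 (SE, adjusted p = 1.35e-05) in control and -3.14 ± 0.27 (adjusted p = 1.58e-05) with amyloid-β.

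Mt-nd1 and Mt-nd2, core membrane subunits whose genes lie near the start of the heavy-strand precursor, came next. Mt-nd1 was at 3583, 2155 and 3967 CPM in control input and 2649, 1441 and 2895 CPM in amyloid-β input. In the hnRNP A2 libraries it was at 425, 571 and 654 CPM in control and 473, 706 and 897 CPM with amyloid-β. No hnRNP A2 library reached the lowest input library, and edgeR gave log2 fold changes of -2.56 ± 0.36 (SE, adjusted p = 0.000188) in control and -1.76 ± 0.35 (adjusted p = 0.00154) with amyloid-β. Mt-nd2 was at 1247, 1154 and 1293 CPM in control input and 984, 764 and 1262 CPM in amyloid-β input. In the hnRNP A2 libraries it was at 126, 304 and 355 CPM in control and 162, 448 and 449 CPM with amyloid-β. Here too the kinds of library were separate, and replicate 2 was the lowest hnRNP A2 library of both treatments. The log2 fold change was -2.24 ± 0.42 (SE, edgeR adjusted p = 0.00123) in control and -1.53 ± 0.41 (adjusted p = 0.0104) with amyloid-β.

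Mt-nd4l and Mt-nd4, membrane subunits read from 1 shared messenger, differed less between the kinds of library. Mt-nd4l was at 250.5, 214 and 224 CPM in control input and 71.1, 81.2 and 90.9 CPM in the control hnRNP A2 libraries. With amyloid-β it was at 196, 163 and 262 CPM in input and 83.6, 124 and 124 CPM in the hnRNP A2 libraries. It fell in both treatments, without overlap on this scale, at -1.50 ± 0.23 on the log2 scale (SE, edgeR adjusted p = 0.000336) in control and -0.92 ± 0.23 (adjusted p = 0.00616) with amyloid-β. With library sizes alone, where the median of all features was 0.48, the amyloid-β value was -0.44 and did not pass (edgeR adjusted p = 0.147), and hnRNP A2 replicate 4 at 143 CPM was level with input replicate 3 at 142 CPM. Mt-nd4 was at 2426, 2242 and 2044 CPM in control input and 700.0, 1182 and 1488 CPM in the control hnRNP A2 libraries. With amyloid-β it was at 1760.2, 1524 and 2448 CPM in input and 809, 1506 and 1926 CPM in the hnRNP A2 libraries. The control groups were separate and the amyloid-β groups overlapped. Mt-nd4 passed the test in control, at -0.99 ± 0.34 on the log2 scale (SE, edgeR adjusted p = 0.0357), and not with amyloid-β, at -0.46 ± 0.34 (adjusted p = 0.312). That control call was lost without control input replicate 2 (adjusted p = 0.0785), 3 (0.0648) or 4 (0.0684) and without control hnRNP A2 replicate 2 (0.134) or 3 (0.076). With library sizes alone the median of all features moved to 0.65 and Mt-nd4 to -0.37 (edgeR adjusted p = 0.39), and relative to the median Mt-nd4 was at -1.02 with either scaling.

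Mt-nd5, the largest membrane subunit and the last heavy-strand gene of the family, differed least. Its levels were 1238, 1175 and 929.6 CPM in control input and 390.1, 763 and 864 CPM in the control hnRNP A2 libraries. With amyloid-β they were 928, 824 and 1161 CPM in input and 447, 911 and 1065 CPM in the hnRNP A2 libraries. The control groups did not overlap and the amyloid-β groups did. Neither difference passed the test, at log2 fold changes of -0.73 ± 0.34 (SE, edgeR adjusted p = 0.111) and -0.29 ± 0.34 (adjusted p = 0.536). The replicate numbers pair these libraries, and in a fit with that number as a block the control value was -0.82 and passed (edgeR adjusted p = 0.0241).

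Mt-nd6, the light-strand member, went the other way. It was at 234, 82.8 and 109 CPM in control input and 153, 50.0 and 97.6 CPM in amyloid-β input. In the hnRNP A2 libraries it was at 982, 243 and 436 CPM in control and 876, 277 and 310.0 CPM with amyloid-β. Every hnRNP A2 library lay above every input library, and replicate 2 was the highest library of each of these 4 groups. Mt-nd6 rose by 1.98 ± 0.61 on the log2 scale (SE, edgeR adjusted p = 0.0213) in control and 2.29 ± 0.62 (adjusted p = 0.0105) with amyloid-β, which are 3.96-fold and 4.89-fold. Within same-numbered pairs it was higher in 6 of 6, by 2.07, 1.56 and 2.00 on the log2 scale in control and 2.52, 2.47 and 1.67 with amyloid-β. The control call was lost without control input replicate 3 (log2 fold change 1.71, adjusted p = 0.0784), control input replicate 4 (1.85, 0.0865) or control hnRNP A2 replicate 2 (1.25, 0.116). The amyloid-β call was lost without amyloid-β hnRNP A2 replicate 2, where edgeR gave 1.54 (adjusted p = 0.0531).

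With TMM, the heavy-strand genes were lower in the hnRNP A2 library of each same-numbered pair, except Mt-nd5 in amyloid-β replicate 3. There the difference was 0.15 on the log2 scale. Mean pair differences in control were -3.71 for Mt-nd3, -2.53 for Mt-nd1, -2.36 for Mt-nd2, -1.51 for Mt-nd4l, -1.06 for Mt-nd4 and -0.80 for Mt-nd5 (SD 0.27 to 0.81, n = 3). With amyloid-β the same order held, from -3.11 for Mt-nd3 and -1.73 for Mt-nd1 through -1.62, -0.90 and -0.50 to -0.34 for Mt-nd5 (SD 0.44 to 0.92, n = 3). Neighbours in that order differed by less than the larger of their SDs, apart from Mt-nd3 and Mt-nd1 in both treatments and Mt-nd2 and Mt-nd4l in control. Replicate 2 had the largest fall of Mt-nd1, Mt-nd2, Mt-nd4l, Mt-nd4 and Mt-nd5 in both treatments. The directions for Mt-nd4 and Mt-nd5 depended on the scaling. With library sizes alone, both were higher with hnRNP A2 in control replicate 4 and in amyloid-β replicates 3 and 4. In control replicate 4, Mt-nd4 then went from 1389 to 1713 CPM and Mt-nd5 from 632 to 994 CPM. The other heavy-strand genes stayed lower in every pair.

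**Figure D2:**
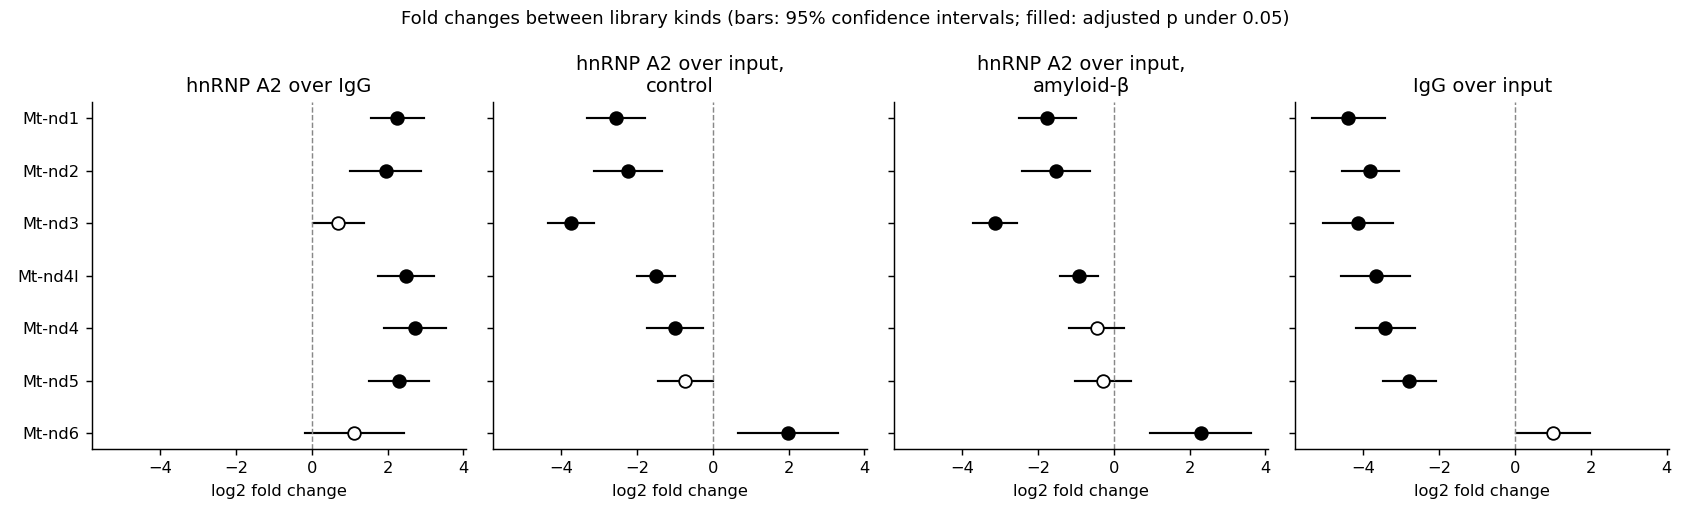
Log2 fold changes of the 7 genes (x axis) in 4 comparisons between kinds of library, with 95% confidence intervals, filled where the edgeR adjusted p was under 0.05. Mt-nd6 lies to the right of the heavy-strand genes in both comparisons of hnRNP A2 with input and in that of IgG with input, and the heavy-strand genes lie to the right of 0 in the comparison of hnRNP A2 with IgG.

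Set against IgG, the background of the immunoprecipitation, the heavy-strand genes other than Mt-nd3 were higher in the hnRNP A2 libraries. With edgeR, 5 of the 7 genes rose and none fell, where 7.79% of all tested features rose and 5.83% fell. The median log2 fold change of the members was 2.26, against 0.07 over all features. The comparisons with IgG and with input share the hnRNP A2 libraries, so they are not independent of each other. The 6 hnRNP A2 libraries come from 3 replicate numbers and entered this fit as separate samples. The fit with the replicate block called 6 of the 7 genes higher, where 2937 of 15304 features rose and 2455 fell.

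In IgG replicates 2, 3 and 4 the levels of Mt-nd4 were 239, 176 and 155 CPM, from 25, 819 and 322 counts. Every hnRNP A2 library was above these, and edgeR put the log2 fold change of Mt-nd4 at 2.73 ± 0.37 (SE, adjusted p = 0.00398). Mt-nd5 was at 134, 154 and 137 CPM in IgG and rose by 2.30 ± 0.36 (adjusted p = 0.00605). Mt-nd1 was at 105, 90.0 and 169 CPM in IgG, below all hnRNP A2 libraries. It rose by 2.26 ± 0.32 on the log2 scale (SE, edgeR adjusted p = 0.00398). Mt-nd2 was at 66.8, 76.6 and 77.1 CPM in IgG and rose by 1.95 ± 0.43 (adjusted p = 0.0168). These 4 genes are thus 3.88-fold to 6.65-fold higher in the hnRNP A2 than in the IgG libraries.

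The short genes had few counts in IgG. Mt-nd4l had 0, 56 and 49 counts in IgG replicates 2, 3 and 4, or 12.02 and 23.6 CPM in the libraries with counts. Its log2 fold change was 2.48 ± 0.34 (SE, edgeR adjusted p = 0.00398). Mt-nd3 had 0, 35 and 9 counts, or 7.51 and 4.34 CPM in replicates 3 and 4, against 8.20 CPM in the lowest hnRNP A2 library. It did not pass the test, at 0.71 ± 0.31 (edgeR adjusted p = 0.15), but it did in the fit with the replicate block, at 0.74 (adjusted p = 0.0333). With the block but without IgG replicate 4 it was at 0.57 and did not pass (edgeR adjusted p = 0.167). The 28.6 CPM that a count of 0 allows in IgG replicate 2 is above every hnRNP A2 level of Mt-nd3, so that library carries no information on its direction.

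Mt-nd6 overlapped between the IgG and hnRNP A2 libraries. It had 11, 1981 and 218 counts in IgG, or 105, 425 and 105 CPM, and replicate 3 was above 3 of the 6 hnRNP A2 libraries. The log2 fold change was 1.13 with a 95% confidence interval of -0.19 to 2.44 (edgeR adjusted p = 0.23), so neither direction was established. With the 2 treatments averaged, hnRNP A2 minus IgG was 3.14 on the log2 scale for replicate 2, -0.71 for replicate 3 and 1.81 for replicate 4. Calls of other genes against IgG rested in part on IgG replicate 4. Without IgG replicate 4 edgeR called 2 of the 7 genes higher than in IgG, and Mt-nd2 (adjusted p = 0.129), Mt-nd4 (0.0657) and Mt-nd5 (0.0771) no longer passed, with log2 fold changes of 1.99, 2.62 and 2.28. The count of all features called higher then fell from 1192 to 7. With the replicate block and without that library 5 of the 7 genes were higher, where 2103 of all features were higher and 1628 lower.

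IgG against input shows what the immunoprecipitation recovered without the antibody to hnRNP A2. With edgeR, 6 of the 7 genes fell and none rose, where 16.3% of all tested features fell and 14.3% rose. The 6 input libraries come from 3 replicate numbers and entered this fit as separate samples. The fit with the replicate block also called 6 of the 7 genes lower, although the numbers were not read as pairing IgG with input. The share of all features called in that fit is not given here, so this count has no background beside it. The log2 fold changes were -4.40 ± 0.45 (SE) for Mt-nd1, -4.14 ± 0.43 for Mt-nd3, -3.82 ± 0.36 for Mt-nd2, -3.68 ± 0.43 for Mt-nd4l, -3.42 ± 0.36 for Mt-nd4 and -2.79 ± 0.33 for Mt-nd5 (adjusted p from 9.81e-06 to 4.35e-05). Mt-nd6 did not pass, at 0.99 ± 0.46 (edgeR adjusted p = 0.113), and IgG and input overlapped. Its value rested on IgG replicate 3, without which the log2 fold change was -0.18 (adjusted p = 0.836). It passed without control input replicate 2 (1.25, adjusted p = 0.039), without amyloid-β input replicate 2 (1.18, 0.039), with library sizes alone (1.47, 0.0169) and with no expression filter (0.94, 0.0173).

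The make-up of the family's counts differed between the kinds of library. Shares of counts depend on gene length and are read here only for 1 gene between libraries. Mt-nd6 held 1.58% ± 0.660 of the members' counts in input (SD, n = 6, 1.03% to 2.57%). In the hnRNP A2 libraries it held 36.3% and 30.6% in replicate 2 of control and amyloid-β, and 6.48% to 11.2% in the other 4. In IgG it held 16.2% (95% exact Clopper-Pearson interval 8.36% to 27.1%, counting error only) in replicate 2, 45.2% in replicate 3 and 15.6% in replicate 4. Every immunoprecipitation library, with IgG as with hnRNP A2, was thus above every input library. Mt-nd1 held 36.5% ± 6.03 in input and 17.3% ± 1.12 with hnRNP A2, without overlap. In IgG it held 17.0% ± 7.82 (n = 3, 9.55% to 25.1%), also below every input library. Mt-nd3 held 1.47% ± 0.157 in input and 0.293% ± 0.0493 with hnRNP A2, also without overlap. In IgG it held 0.481% ± 0.424 (n = 3, 0% to 0.798%), from few counts. Replicates 3 and 4, at 0.798% and 0.646%, were below every input library. Replicate 2 had 0 counts of Mt-nd3 among 68 of the members, too few to set it below or above input.

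**Figure D3:**
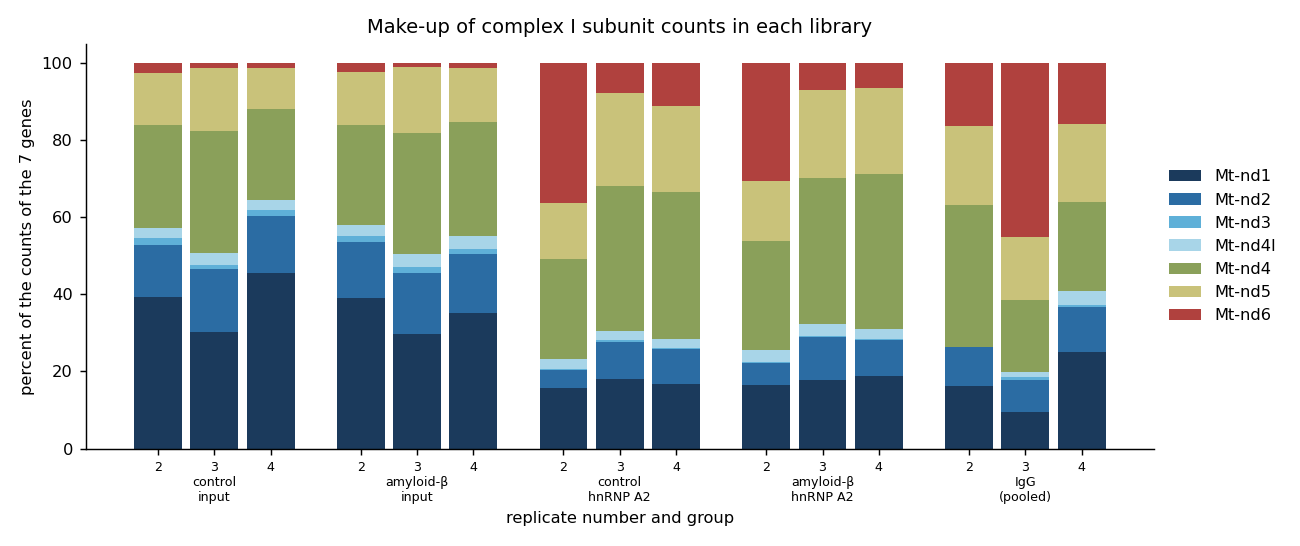
Percent of the counts of the 7 complex I genes (y axis) held by each gene in each of the 15 libraries, labelled by replicate number and group. The Mt-nd6 segment is 1.03% to 2.57% in input and 6.48% or more in every immunoprecipitation library. The Mt-nd1 segment is smaller in the hnRNP A2 and IgG libraries than in the input libraries.

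A ratio of 2 genes within a library does not depend on library scaling. Mt-nd6 was compared with Mt-nd5, its neighbour read from the opposite strand, in 5 comparisons by 2-sided exact permutation tests over libraries, adjusted together. Per 100 counts of Mt-nd5 there were 18.9, 7.04 and 11.7 of Mt-nd6 in control input and 16.5, 6.07 and 8.41 in amyloid-β input. The hnRNP A2 libraries had 251.8, 31.9 and 50.5 in control and 196, 30.4 and 29.1 with amyloid-β, and IgG had 78.6, 275.5 and 76.5. The lowest immunoprecipitation library was above the highest input library. From input to hnRNP A2 the log2 ratio was 2.62 higher, or 6.14-fold (exact p = 0.00216, the smallest possible, adjusted 0.0108, n = 6 and 6), and it was higher in 6 of 6 pairs. In the paired exact test, chosen after seeing the data, p was 0.0312, the smallest possible with 6 pairs, and 0.156 after adjustment. Both tests count control and amyloid-β libraries of 1 number as separate, although they deviate together, which overstates the number of independent libraries. The paired p-value is therefore too small. The unpaired test also leaves out the pairing of hnRNP A2 with input, which acts in the opposite direction, so its net error is not known. With the treatments averaged by number, the log2 ratio was 3.65, 2.25 and 1.95 higher in replicates 2, 3 and 4, and the paired exact p was 0.25, the smallest possible with 3 numbers (0.312 adjusted). From input to IgG it was 3.50 higher (exact p = 0.0238, adjusted 0.0595), again the smallest p possible, and paired by number the exact p was 0.25. Between hnRNP A2 and IgG the log2 ratio differed by -0.88 (exact p = 0.357, adjusted 0.595), with overlap.

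**Figure D4:**
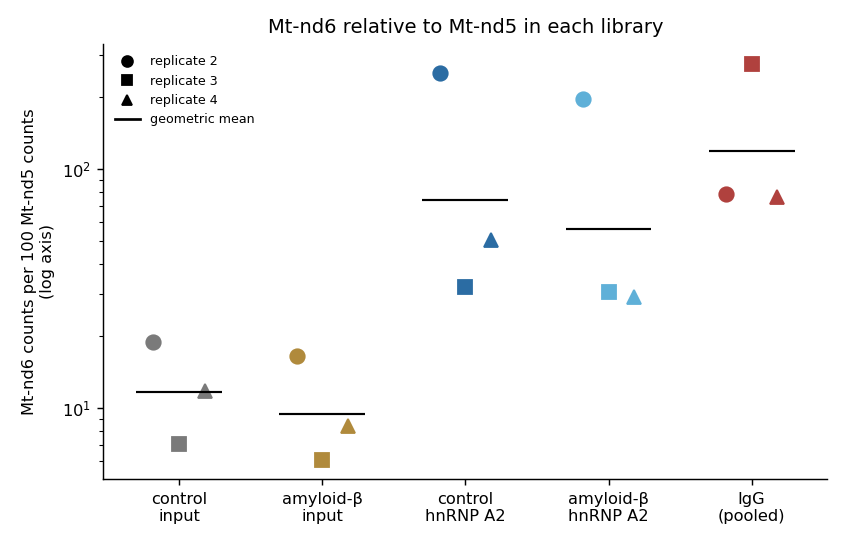
Mt-nd6 counts per 100 Mt-nd5 counts (y axis, log) in each library by group, shaped by replicate number, with a bar at the geometric mean. All input libraries lie at or below 18.9, and all hnRNP A2 and IgG libraries at or above 29.1.

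The heavy-strand genes also shifted against each other. Mt-nd4 had 80.0 ± 21.9 counts per 100 of Mt-nd1 in input (SD, n = 6, 51.5 to 106) and 199.8 ± 25.7 in the hnRNP A2 libraries (n = 6, 165 to 228), and no library of one kind reached the other. In IgG this ratio was 172 ± 70.7 (n = 3, 92.0 to 227). Mt-nd3 had 50.4 ± 8.82 counts per 100 of Mt-nd4l in input and 10.9 ± 1.33 in the hnRNP A2 libraries, again without overlap. In the 2 IgG libraries with counts of both it was 18.4 and 62.5, from few counts. The latter lies within the input range of 39.7 to 63.3. Mt-nd2 per 100 of Mt-nd1 was 42.5 ± 9.16 in input and 47.5 ± 12.9 in the hnRNP A2 libraries, a difference smaller than the spread. In IgG it was 64.9 ± 19.8 (n = 3). Mt-nd4l per 100 of Mt-nd4, which share a messenger, was 10.6 ± 0.574 in input and 8.03 ± 1.87 in the hnRNP A2 libraries, with overlap. In IgG it was 7.35 ± 7.62 (n = 3). These ratios were not tested.

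No complex I gene passed the test for an effect of amyloid-β. In input, edgeR called 0 of the 7 genes, where 0% of 13793 features passed, and 188 features had an unadjusted p under 0.05, none of them a member. In the hnRNP A2 libraries 0 of the 7 passed, where 0% of 15118 features passed. There 42 features had an unadjusted p under 0.05, among them Mt-nd4l. DESeq2, limma with voom and the edgeR fit with the replicate block also called 0 of the 7 in each.

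In input, Mt-nd1 was lower with amyloid-β in 3 of 3 same-numbered pairs, at -0.44, -0.58 and -0.45 on the log2 scale in replicates 2, 3 and 4. Its log2 fold change in the fit without a replicate term was -0.49, with a 95% confidence interval of -1.35 to 0.37 (edgeR adjusted p = 0.954). With the replicate block it was -0.50 (edgeR adjusted p = 0.415), and the other members had adjusted p of 0.387 to 0.785 there. Mt-nd2, Mt-nd3 and Mt-nd6 were also lower in 3 of 3 pairs, with mean differences of -0.32 ± 0.28 (SD), -0.34 ± 0.22 and -0.50 ± 0.30. Mt-nd4l, Mt-nd4 and Mt-nd5 were lower in replicates 2 and 3 and higher in replicate 4, at 0.22, 0.26 and 0.32. The 7 fitted values had a median of -0.31, against -0.01 over all features.

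In the hnRNP A2 libraries the heavy-strand genes pointed the other way. Each of the 6 was higher with amyloid-β in 3 of 3 pairs, with mean differences from 0.25 ± 0.05 (SD) for Mt-nd5 to 0.43 ± 0.19 for Mt-nd4l. The 95% confidence interval of the fitted log2 fold change ran from 0.00 to 0.88 for Mt-nd4l (0.44, edgeR adjusted p = 1) and from -0.65 to 1.17 for Mt-nd5 (0.26, adjusted p = 1). Mt-nd6 was at -0.17, 0.19 and -0.49 in replicates 2, 3 and 4, with no common direction. The 7 fitted values had a median of 0.33, against 0.00 over all features. These values come from a fit without a replicate term. With the replicate block, edgeR gave 0.41 for Mt-nd2 (adjusted p = 0.0594) and 0.43 for Mt-nd4l (adjusted p = 0.0611). The other members had adjusted p of 0.25 to 0.874 there, and none of the 7 passed.

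**Figure D5:**
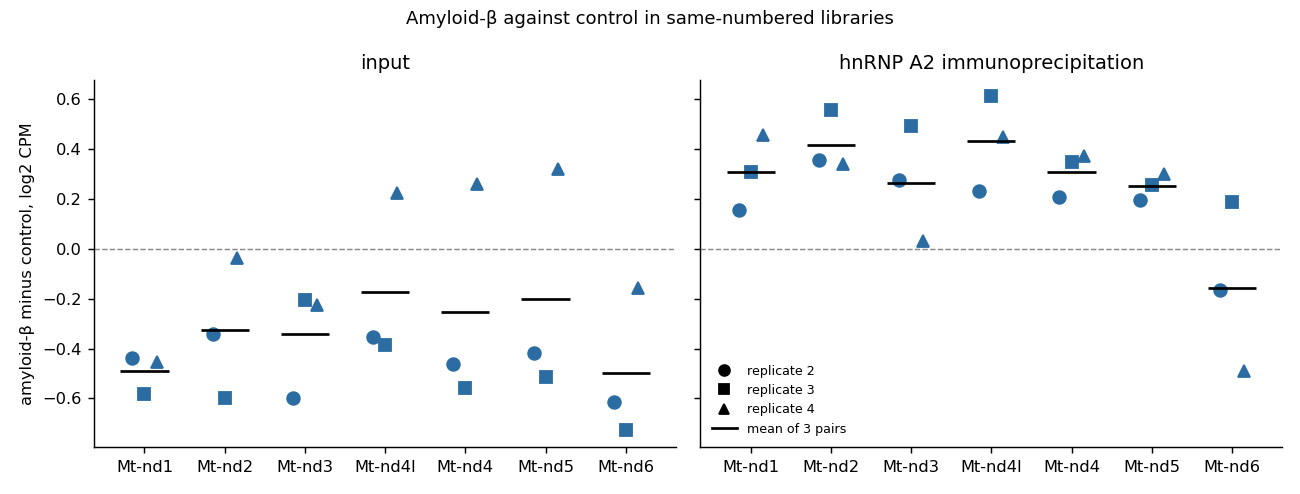
Amyloid-β minus control (y axis, log2 CPM) in same-numbered libraries for the 7 genes, in input (left) and in the hnRNP A2 immunoprecipitation (right), with a bar at the mean of 3 pairs. The heavy-strand genes lie above 0 in all 3 pairs on the right, and Mt-nd1, Mt-nd2, Mt-nd3 and Mt-nd6 lie below 0 in all 3 pairs on the left.

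Whether amyloid-β changed hnRNP A2 recovery relative to input was tested as an interaction. The values were positive for all 7 genes, from 0.30 for Mt-nd6 to 0.80 for Mt-nd1 on the log2 scale, with a median of 0.57, against -0.02 over all features. None passed with edgeR (adjusted p = 1 for each, unadjusted p from 0.0944 to 0.721), where 0% of 15303 features passed and 125 had an unadjusted p under 0.05. The interval was widest for Mt-nd6, at -1.50 to 2.11, and for Mt-nd1 it was -0.23 to 1.83. The log2 ratio of Mt-nd6 to Mt-nd5 was lower with amyloid-β in 3 of 3 pairs of each kind. The mean difference was -0.30 in input (unpaired exact p = 0.7) and -0.41 in the hnRNP A2 libraries (unpaired exact p = 0.5). With 3 libraries a group, the unpaired tests cannot go below 0.1, and they leave out the pairing. In the paired exact test, chosen after seeing the data, p was 0.25 in each kind, the smallest possible with 3 pairs.

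Across the 15 libraries, log2 CPM of the heavy-strand genes moved together, at Pearson's r of 0.74 to 0.99 between any 2 of them, highest for Mt-nd4 and Mt-nd5. Mt-nd6 had r of -0.42 to 0.03 with them. These correlations describe libraries of 3 kinds and very unequal depth and carry no p. Among 8969 features with a mean of at least 10 CPM, the pair most like the mean of the heavy-strand genes was ENSRNOG00000069233 (r = 0.99, n = 15) and ENSRNOG00000030371 (r = 0.98). ENSRNOG00000069233 was at a mean of 27.4 CPM in input, 5.56 in the hnRNP A2 libraries and 0.375 in IgG. That IgG mean is below the level that 3 counts would give in any IgG library (0.644 CPM or more). ENSRNOG00000030371 was at a mean of 2316 CPM in input, 1064 in the hnRNP A2 libraries and 131 in IgG. Most like Mt-nd6 were ENSRNOG00000032178 (r = 0.93, n = 15) and ENSRNOG00000018972 (r = 0.92), the latter at a mean of 60.9 CPM in input, 125 in the hnRNP A2 libraries and 65.7 in IgG. None of these identifiers could be named here.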

How the data were processed

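Counts per gene identifier were deposited by the authors as whole numbers that had not been normalized. The submitters' processing notes name STAR 2.7.1, HTSeq, R 4.2.2 and DESeq2, with no role given; the sources used here do not give the build, annotation or strand setting. The 5 summary rows that name no gene, 65.5% to 91.4% of all records in a library, were left out. Samples were grouped by titles and treatment labels. The design text calls the replicates biological, and p-values measure only the spread between these libraries.

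The members and lists were chosen with earlier results of these data known. Tests used edgeR 4.0.16 in R 4.3.3 (TMM, default expression filter, quasi-likelihood F test, Benjamini-Hochberg over all features tested, threshold 0.05), on the libraries of each comparison and without a replicate term. SE is the size of the log2 fold change over the square root of F. The script was tested on simulated data. Library pairs of a group differed beyond sampling noise in their counts.

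As a check of pairing, deviations from the group mean were correlated between libraries of the same number, at 0.53 to 0.79 between treatments in the hnRNP A2 libraries, 0.45 to 0.65 in input, 0.15 to 0.58 between hnRNP A2 and input and 0.15 to 0.28 between hnRNP A2 and IgG. Differently numbered pairs reached 0.27 and 0.07 in the first 2 of these, below every matched pair, but 0.30 and 0.17 in the last 2, within the matched range. The numbers, taken from the titles, were read as pairing those libraries, but not IgG and input, where r fell to -0.08.

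The ratio of Mt-nd6 to Mt-nd5 was taken without the planned length correction, which cancels in differences between libraries. Named genes are all members, plus the 2 features most correlated with the heavy-strand mean and with Mt-nd6 (log2 CPM, prior count 2). Alternatives were limma 3.58.1 with voom, DESeq2 1.42.0, other scalings and filters, all libraries in 1 fit, the replicate block and each library left out. The comparisons of each treatment alone with IgG or input, the paired ratio tests, and the block without IgG replicate 4 were chosen after seeing the data.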

Additional observations from a re-analysis of the deposited data

How the results depend on the processing

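Of 441 values of single genes under the planned settings other than leaving out a library, 430 kept direction and side of the threshold, 8 changed side and 3 changed sign. The replicate block turned 2 calls, of Mt-nd3 against IgG (log2 fold change 0.74, edgeR adjusted p = 0.0333) and of Mt-nd5 against input in control (-0.82, 0.0241), and changed no other call of a gene; for Mt-nd3 against IgG the block gave 0.87 (0.0176) with amyloid-β alone, 0.60 (0.0995) with control alone and 0.57 (0.167) without IgG replicate 4. Paired by number, the ratio of Mt-nd6 to Mt-nd5 between hnRNP A2 and input had the same 2.62 with adjusted p = 0.156, and 0.312 with the treatments averaged by number. Library sizes alone moved the median of all features to 0.65 and 0.48 in hnRNP A2 against input (control, amyloid-β) and to 0.33 in IgG against input. With amyloid-β, Mt-nd4 and Mt-nd5 then changed sign against input to 0.028 and 0.20, and Mt-nd4l no longer passed (-0.44, adjusted p = 0.147); relative to that median Mt-nd4 was at -0.45 and Mt-nd5 at -0.28, against -0.44 and -0.27 with TMM. Mt-nd4l in amyloid-β against control input changed sign to 0.018. Features higher and lower then numbered 5598 and 1042 in control, 4766 and 1591 with amyloid-β, and 3385 and 1213 for IgG against input, against 2908 and 2814, 2845 and 3137, and 2025 and 2316 with TMM. For IgG against input, library sizes alone and no filter each called 1 gene higher, Mt-nd6. Without the 10 most abundant features in the library size, Mt-nd4 in control did not pass (-0.89, adjusted p = 0.0613), nor did Mt-nd2 against IgG with voom (0.0555). Against IgG, 1192 features were higher and 892 lower; voom gave 504 and 593, the block 2937 and 2455, 1 fit of all libraries 584 lower, control alone 650 and 379, amyloid-β alone 690 and 463, these with the block 2655 and 2199, and 2728 and 2235, and the block without IgG replicate 4 2103 and 1628. With the block 1 feature, no member, rose with amyloid-β in the hnRNP A2 libraries. Leaving out 1 library gave 2 to 5 genes higher against IgG, 0 to 1 higher than input in control, with amyloid-β and for IgG, and 7 to 1563 features higher and 14 to 1065 lower against IgG. For IgG against input it gave 929 to 2080 features higher and 1264 to 2756 lower. Signs changed for Mt-nd5 in hnRNP A2 against input with amyloid-β (-0.53 to 0.0033), Mt-nd6 in IgG against input (-0.18 to 1.26), amyloid-β against control for Mt-nd6 in input (-0.91 to 0.0089), for Mt-nd5 (-0.0097 to 0.55) and Mt-nd6 (-0.93 to 0.53) in hnRNP A2, the interaction of Mt-nd6 (-0.44 to 1.04), and the ratio in amyloid-β against control in input (-0.70 to 0.056) and hnRNP A2 (-1.31 to 0.48). The cause of these changes was not tested. The correction for gene length was not run. IgG depth limits every value set against IgG.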
